A study of Mus musculus with 6 samples.

Results

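The replication-dependent histone genes are the copies of the H1, H2A, H2B, H3 and H4 genes that supply histones while DNA is being copied. They were taken as the protein-coding genes of GENCODE M21 (mm10) whose symbol starts with Hist1h, Hist2h, Hist3h or Hist4h, which gave 67 of 21938 genes. Of these, 54 lie in the Hist1 cluster on chromosome 13, 10 in Hist2 on chromosome 3, 2 in Hist3 on chromosome 11, and Hist4h4 lies alone on chromosome 6. By product there were 6 H1, 18 H2A, 18 H2B, 12 H3 and 13 H4 genes.

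The core histones H2A, H2B, H3 and H4 form the protein spool of the nucleosome, and linker histone H1 binds where DNA enters and leaves it. Replication-dependent copies are transcribed mainly in S phase, have no introns in their coding part, and end their mRNA in a conserved stem-loop, bound by Slbp, in place of a poly(A) tail. Many sit head to head and share the DNA between their starts, and cardiomyocytes around birth are still completing their last rounds of division.

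Accessibility was measured with Omni-ATAC-Seq on nuclei of whole hearts from mice at postnatal day 1, passed through a 2.2 M sucrose cushion, with 50000 nuclei per library and 2 biological replicates per group. The Input group held wild-type nuclei from the cushion alone. The PCM1 group held wild-type nuclei pulled down with an antibody to PCM1, a protein found on the nuclear envelope of cardiomyocytes. The Myc group held nuclei of Nkx2-5 Cre/+; R26R Sun1-Myc-Egfp/+ hearts pulled down through the Myc tag. Since Cre is driven by Nkx2-5, the tagged lineage also takes in smooth muscle and endothelial cells. The study used this cushion to keep peaks of cells other than cardiomyocytes out of the maps. It reported that antibodies to Myc and to phospholamban, a cardiomyocyte marker, stained all nuclei from the cushion. Genotype and antibody changed together between the Myc libraries and the other 4, so they cannot be told apart. By the study's design the input was an aliquot of the cushion nuclei, and the labels do not say which libraries share a preparation.

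The 6 peak lists held 75336 to 131500 peaks, and the genome-wide background pileup ran from 0.903 to 3.96. Input 1 was the deepest by this measure, and every level below was therefore scaled within its library. Of 12 cardiomyocyte markers 10 had a peak in all 6 libraries, while Tnni3 and Nkx2-5 had none within 1 kb of the gene-level start. Their summed relative pileup, a scale defined below, was 22.5 and 21.7 in the Input libraries, 11.0 and 12.3 in the Myc libraries and 27.1 and 28.3 in the PCM1 libraries. The Myc libraries were thus lowest on this scale, with no overlap. By rank percentile, also defined below, the groups overlapped, with marker medians of 91.5 and 88.2 for Input, then 88.2 and 89.5 for Myc and 88.4 and 86.6 for PCM1. The 8 fibroblast markers summed to 1.64 to 2.78 over the libraries, with both Myc values highest. The 6 endothelial markers summed to 2.28 to 3.10 with the groups overlapping, and the 6 immune markers were at 0 in every library.

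What these genes share in sequence is shown first, because the results on missing peaks and on shared peaks turn on it. A stem-loop was searched for in the 150 bases after the stop codon, as 6 bases starting GGC, a loop of 4 bases starting TT, and the reverse complement of the 6 bases. It was found in 61 of 67 genes, between 22 and 59 bases after the stop codon, in 5 forms, and all 10 genes without any peak had it. The 4 forms held by more than 1 gene are printed below from the mm10 genome with the stem in capitals, the first being held by 41 genes, the second by 9, the third by 8 and the fourth by 2.

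Hist1h1c and 40 others: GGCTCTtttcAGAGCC
Hist1h3c and 8 others: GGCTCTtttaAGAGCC
Hist1h4h and 7 others: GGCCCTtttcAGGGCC
Hist2h4 and Hist1h4i: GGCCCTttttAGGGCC

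The last 2 forms were found in H4 genes alone, among the genes with a stem-loop. The genes without a match were Hist2h2be, Hist1h4j, Hist1h2an, Hist1h3g, Hist1h4b and Hist1h4a, each with a peak in all 6 libraries. A missing match says only that these letters are not in that window.

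Promoters of 300 bases, from 250 before to 50 after the start, were available from RefSeq (GRCm38.p6) for 62 of the 67 genes and were searched on both strands for 5 motifs that do not overlap one another. CCAAT, the NF-Y box, was in 53 of 62 (85.5%), against 38.2% of the 21262 promoters of protein-coding genes. Every matched H1, H2A, H2B and H3 promoter held it, but 3 of 12 H4 promoters. TATAAA, the TATA box, was in 35 of 62 (56.5%) against 12.6%. The other motifs went with the histone type. GGTCCG, part of the cell cycle element of H4 genes, was in 11 of 12 H4 promoters (91.7%), 1 H2B and 1 H3 promoter, and 10.5% of all. AAACACA, the H1 box, was in 5 of 6 H1 promoters (83.3%), 2 of 18 H2A, 2 of 16 H2B and 6.15% of all. ATTTGCAT, the octamer bound by Pou2f1, was in 7 of 18 H2A and 6 of 16 H2B promoters and 1.66% of all.

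The DNA between the starts of 3 divergent pairs is printed on the plus strand of mm10, with the NF-Y box, the TATA box and the octamer in capitals on either strand. The pair Hist1h2bl and Hist1h2ai, at chr13:21716144-21716421, had the largest ratio of Myc to PCM1 among histone genes with a peak in all 6 libraries. The pair Hist1h2ae and Hist1h2bg, at chr13:23571221-23571395, held all 3 motifs in the shortest stretch. The pair Hist1h2bq and Hist1h2ao, at chr13:21810198-21810464, had no peak in any library.

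Hist1h2bl to Hist1h2ai: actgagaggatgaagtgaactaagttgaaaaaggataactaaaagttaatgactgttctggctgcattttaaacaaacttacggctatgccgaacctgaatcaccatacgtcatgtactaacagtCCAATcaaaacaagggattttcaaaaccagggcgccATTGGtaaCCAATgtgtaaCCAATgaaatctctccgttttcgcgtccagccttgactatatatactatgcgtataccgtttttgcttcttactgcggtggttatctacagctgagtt
Hist1h2ae to Hist1h2bg: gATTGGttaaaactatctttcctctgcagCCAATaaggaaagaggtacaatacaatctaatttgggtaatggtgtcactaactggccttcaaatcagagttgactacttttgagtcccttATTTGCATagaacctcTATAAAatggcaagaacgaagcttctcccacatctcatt
Hist1h2bq to Hist1h2ao: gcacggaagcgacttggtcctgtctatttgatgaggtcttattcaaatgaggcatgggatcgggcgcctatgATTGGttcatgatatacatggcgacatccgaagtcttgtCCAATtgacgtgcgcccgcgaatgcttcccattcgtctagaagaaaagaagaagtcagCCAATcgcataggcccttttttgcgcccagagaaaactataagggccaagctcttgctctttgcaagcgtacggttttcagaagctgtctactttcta

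The 250 bases before the gene-level start are shown for 4 genes on the gene's own strand, with any of the 5 motifs in capitals. Hist1h1c (chr13:23738558-23738807, plus strand) had the highest level of all these genes, and Hist1h1t (chr13:23695564-23695813, plus strand) is the testis copy of H1, which had no peak. Hist1h4h (chr13:23530800-23531049, plus strand) was the highest and Hist1h4k (chr13:21750506-21750755, minus strand) the lowest H4 gene with a peak in all 6 libraries.

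Hist1h1c: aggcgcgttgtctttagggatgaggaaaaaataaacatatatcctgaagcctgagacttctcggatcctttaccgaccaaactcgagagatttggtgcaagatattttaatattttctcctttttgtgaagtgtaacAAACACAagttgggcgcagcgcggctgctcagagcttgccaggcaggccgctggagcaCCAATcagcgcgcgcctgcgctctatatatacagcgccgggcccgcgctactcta
Hist1h1t: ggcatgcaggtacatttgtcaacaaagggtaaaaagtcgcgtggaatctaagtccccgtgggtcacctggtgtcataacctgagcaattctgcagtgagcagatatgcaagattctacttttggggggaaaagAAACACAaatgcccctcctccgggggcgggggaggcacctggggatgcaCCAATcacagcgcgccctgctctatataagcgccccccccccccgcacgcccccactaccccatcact
Hist1h4h: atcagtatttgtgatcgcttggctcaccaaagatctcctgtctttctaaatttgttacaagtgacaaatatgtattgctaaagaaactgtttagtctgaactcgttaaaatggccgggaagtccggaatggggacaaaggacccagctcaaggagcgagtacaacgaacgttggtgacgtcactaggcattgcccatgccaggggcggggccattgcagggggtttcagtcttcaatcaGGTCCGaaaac
Hist1h4k: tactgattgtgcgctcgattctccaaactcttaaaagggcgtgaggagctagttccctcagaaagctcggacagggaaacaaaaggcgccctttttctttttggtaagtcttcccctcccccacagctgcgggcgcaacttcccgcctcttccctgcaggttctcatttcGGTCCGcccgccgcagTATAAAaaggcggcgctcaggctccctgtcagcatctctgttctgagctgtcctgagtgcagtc

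The promoters of Hist1h1c and Hist1h1t both held an H1 box and a CCAAT box. Hist1h1t had no peak, and the high level of Hist1h1c came from a summit outside its printed promoter. CCAAT was in 85.1% of the 47 matched promoters of genes with a peak in all 6 libraries and in 86.7% of the 15 other matched promoters, some of which had a peak in part of the libraries. In the same order the shares were 59.6% and 46.7% for the TATA box, 23.4% and 13.3% for the octamer, 10.6% and 26.7% for the H1 box, and 23.4% and 13.3% for the H4 element. With 15 promoters these are descriptions of few genes.

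Most histone gene starts were accessible. A gene was scored as having a peak where a peak of that library overlapped the 1 kb to either side of its gene-level start. That held for 57 histone genes in Input 1, 55 in Input 2, 57 in Myc 1, 55 in Myc 2 and 54 in each PCM1 library, or 80.6% to 85.1%. Over all protein-coding genes the share was 66.0% in Input 1, 59.8% in Input 2, 63.7% in Myc 1, 63.5% in Myc 2, 60.2% in PCM1 1 and 59.9% in PCM1 2.

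In all 6 libraries together, 52 of 67 histone genes (77.6%) had a peak, against 56.1% of all 21938 genes. A further 10 had none in any library and 5 had one in some. Without both Myc libraries the count remained 52. Both Input libraries held a peak at 55, both Myc libraries at 55 and both PCM1 libraries at 53. By type, a peak in all 6 libraries was held by 3 of 6 H1, 14 of 18 H2A, 15 of 18 H2B, 9 of 12 H3 and 11 of 13 H4 genes.

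The counts are of genes and not of separate peaks. The strongest peaks of the histone genes, merged over libraries, formed 45 regions, and 16 of these served 34 genes. Of the 52 genes with a peak in all 6 libraries, 10 had their strongest summit nearest to another histone gene's start in every library and 12 in some libraries. Asking for a peak within 200 bases of the start left 49 genes with one in all 6 libraries.

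The Hist1 cluster fell into 4 stretches separated by more than 100 kb. The first held 18 genes over 118 kb, of which 11 had a peak in all 6 libraries and 5 in none. The second, with 5 genes over 7.65 kb, had a peak in all 6 libraries at every gene. The third held 29 genes over 233 kb, 25 with a peak in all 6 and 2 with none. The fourth was the testis pair Hist1h2ba and Hist1h2aa, with no peak. In Hist2, 8 of 10 genes had a peak in all 6 libraries.

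In the first 2 of these stretches peaks stayed close to histone starts. No peak of the first and second stretches lay more than 1 kb from a histone start in any library, out of 10 to 12 and 3 to 4 peaks per library. In the third stretch, 7 to 15 of 31 to 42 peaks did.

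**Figure D1:**
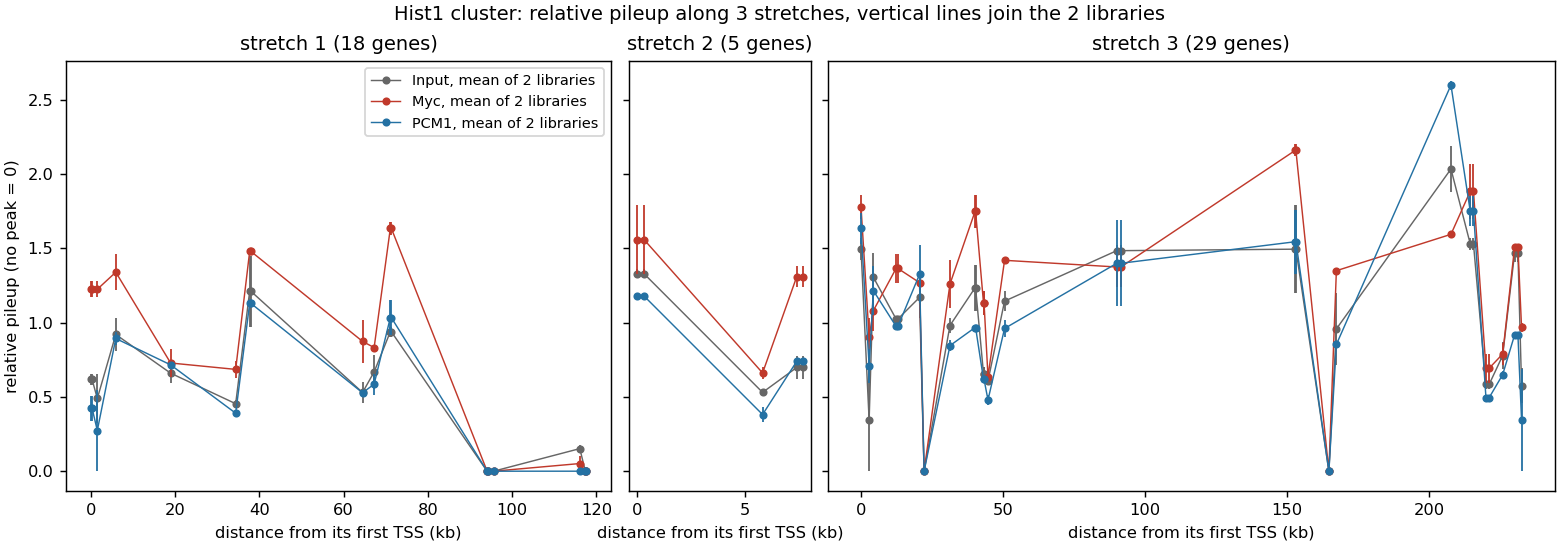
Relative pileup of the strongest peak (vertical axis, 1 is the median gene with a peak, 0 is no peak) against distance from the first start of each stretch in kb (horizontal axis) for the first 3 stretches of the Hist1 cluster. Points are means of the 2 libraries of a group, vertical lines join the 2 libraries, and thin lines join neighbouring genes. Myc points lie above the others at all 11 genes of the first stretch with a peak in every library, and below them at Hist1h1c, the highest PCM1 point in the third stretch.

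The 49 other protein-coding genes whose start lies inside the Hist1 span gave a different picture. Only 6 of them (12.2%) had a peak in all 6 libraries and 39 had none. Of the 49, 36 were vomeronasal receptor genes, which serve pheromone sensing, and 35 of those had no peak. The 3 neighbours with the highest mean rank percentile were Zfp322a (95.5), a zinc finger gene, Abt1 (83.0) and Btn2a2 (79.7). Rank percentile is the place of a gene's strongest peak among all peaks of its library by -log10 q, with 100 the strongest peak and 0 for no peak. Zfp322a had relative pileup, the scale defined below, of 1.77 and 1.53 for Input, 1.44 and 1.77 for Myc, and 1.68 and 1.38 for PCM1. Abt1 stood at 0.671 and 0.608, 0.738 and 0.760, and 0.710 and 0.623, and Btn2a2 at 0.562 and 0.351, 0.516 and 0.488, and 0.403 and 0.393, in that order of groups. Of these only Abt1 had both Myc libraries above the other 4. The nearest histone gene start lay 42193 bases from Btn2a2, 107184 from Abt1 and 161842 from Zfp322a.

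The 10 histone genes without a peak were of 3 kinds. The first kind lay in near-identical copies. Hist1h2bq, Hist1h2ao, Hist1h2ap and Hist1h2br had none of the 31-base words within 1 kb of their start found once in the genome (0%), Hist1h4m had 4.06% and Hist2h3c1 19.3%. The stretch printed above for Hist1h2bq and Hist1h2ao holds in full, reverse-complemented, the 235 bases between Hist1h2ap and Hist1h2br. How reads that match several copies were treated is not known, and whether these starts are accessible was not tested.

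The second kind was testis variants, whose windows were mostly unique. Every word at Hist1h1t was unique, as were 89.0% at Hist1h2ba and at Hist1h2aa, with relative pileup 0 in every library. The third was Hist1h1d, an H1 gene whose annotated start lies 1828 bases before its start codon. With the start codon as the centre, 53 genes had a peak in all 6 libraries, Hist1h1d among them. Its relative pileup was then 0.826 and 0.716 for Input, 1.01 and 1.30 for Myc, and 0.887 and 1.23 for PCM1. These levels come from different sites. The strongest summit lay 1132 bases after the start codon in Input 1 and both Myc libraries, and 1123 after it in PCM1 1. It lay at 74 in Input 2 and at -36 in PCM1 2.

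**Figure D2:**
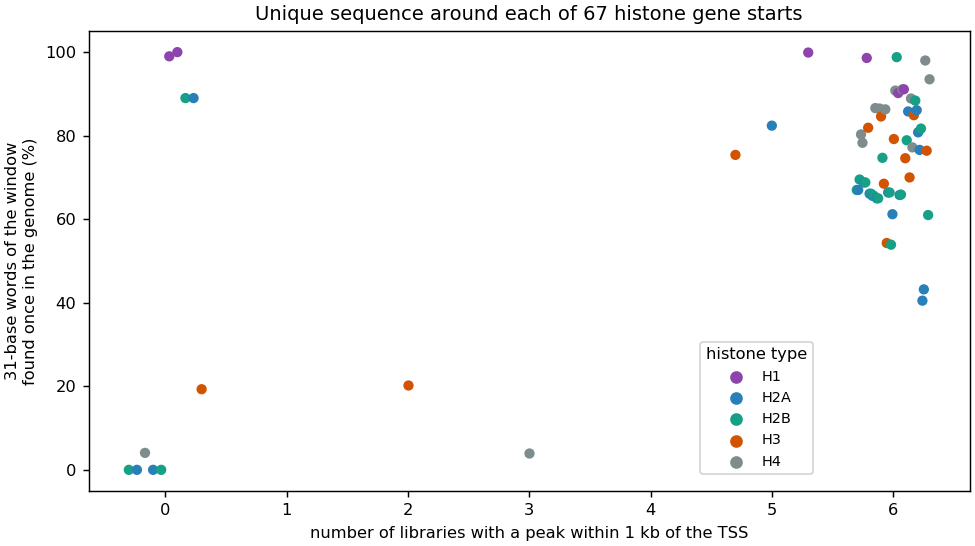
Percent of 31-base words within 1 kb of the start that occur once in the genome (vertical axis) against the number of libraries with a peak there (horizontal axis), 1 point per gene, coloured by histone type and spread sideways to avoid overlap. Of the 10 genes at 0 libraries, 6 lie under 50%, as do 2 of the 52 genes at 6 libraries, Hist2h2aa1 and Hist2h2aa2.

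Some genes with peaks also had few unique words. Hist1h4n, the copy of Hist1h4m, had relative pileup 0.128 and 0.176 in the Input libraries, 0.103 in Myc 1 and no peak in the other 3, with 4.01% unique words. Hist2h3c2, the copy of Hist2h3c1, had 0.190 for Input 1 and 0.159 for Myc 1, no peak elsewhere, and 20.3% unique words. Both genes were thus at the low end wherever they had a peak. Hist2h2aa2 and Hist2h2aa1, with 40.5% and 43.2%, had a peak in every library, and the part of duplication in these levels was not tested.

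The other 3 genes without a peak in every library had one in 5 libraries. Hist1h3h, an H3 gene, had relative pileup 0.655 and 0.324 for Input, 1.17 and 1.28 for Myc, 0.548 in PCM1 1 and none in PCM1 2. In Input 1, Myc 1 and Myc 2 its strongest peak was that of Hist1h2bl and Hist1h2ai, far upstream of its start. Hist1h2af, an H2A gene, lacked a peak in Input 2 and had 0.597 to 1.03 elsewhere. Hist1h1a, an H1 gene, lacked one in PCM1 1 and had 0.459 to 1.00 elsewhere.

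Levels were compared as relative pileup, the pileup at the summit of the gene's strongest peak divided by the median of the same value over all protein-coding genes with a peak in that library. Over the histone genes with a peak its median was 1.04 and 0.973 in the Input libraries, 1.27 and 1.34 in the Myc libraries and 0.976 and 0.918 in the PCM1 libraries, with mean 1.09 over the 6. Histone starts were therefore near the median gene in Input and PCM1 and above it in both Myc libraries. The median rank percentile of the 67 genes was 88.0 and 80.0 for Input, 92.5 and 92.1 for Myc and 75.6 and 77.8 for PCM1, with mean 84.3. All genes had 77.8 and 57.8, 74.8 and 74.0, and 57.4 and 55.9.

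Genes without a peak count as 0 in these medians. Among genes with a peak, histone genes had a median of 91.8 and all genes 92.0 for Input 1, against 93.8 and 92.5 for Myc 2 or 81.3 and 86.6 for PCM1 2, so histone genes were not above the rest in every library.

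The highest level belonged to an H1 gene. Hist1h1c, which encodes a linker histone of somatic cells, was the highest of all 67 genes, with relative pileup 2.19 and 1.88 for Input, 1.62 and 1.57 for Myc and 2.63 and 2.57 for PCM1. Its 3 groups did not overlap, with PCM1 highest and Myc lowest. This is the level of a peak whose summit lay 903 to 997 bases after the start, past the end of the coding part, in every library. Hist1h1b had 0.601 and 0.459 for Input, 1.02 and 0.728 for Myc, and 0.548 and 0.508 for PCM1, with Myc highest. Its strongest summit lay 1060 to 1173 bases after the start in every library, so the level is not that of its promoter.

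Among H2A and H2B genes the highest was the divergent pair Hist1h2ac and Hist1h2bc, which shares 1 peak. It had 1.79 and 1.20 for Input, 2.20 and 2.12 for Myc and 1.76 and 1.33 for PCM1. The Myc libraries were above the other 4, which overlapped one another. The lowest H2A gene with a peak in all 6 libraries was Hist2h2aa2, at 0.411 and 0.297, 0.325 and 0.408, and 0.516 and 0.475, in the same order of groups, and its window is largely duplicated. The lowest such H2B gene was Hist3h2ba, at 0.236 and 0.149, 0.357 and 0.320, and 0.258 and 0.311, with 88.4% unique words.

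Hist1h3c was the highest H3 gene, at 1.57 and 1.49 for Input, 1.70 and 2.07 for Myc and 1.65 and 1.85 for PCM1, so the Input libraries were the lowest. Its strongest summit was in every library that of its neighbour Hist1h2bb, an H2B gene, nearer to the start of the latter. Hist1h3d, the lowest H3 gene with a peak in all 6 libraries, had 0.620 and 0.595, 0.643 and 0.632, and 0.516 and 0.443.

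Hist1h4h, the highest H4 gene, had 1.57 and 1.42 for Input, 1.70 and 1.86 for Myc and 1.53 and 1.74 for PCM1, with Myc and PCM1 overlapping. Hist1h4k had 0.477 and 0.432, 0.627 and 0.744, and 0.371 and 0.410, where Myc was above Input and Input above PCM1 with no overlap.

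**Figure D3:**
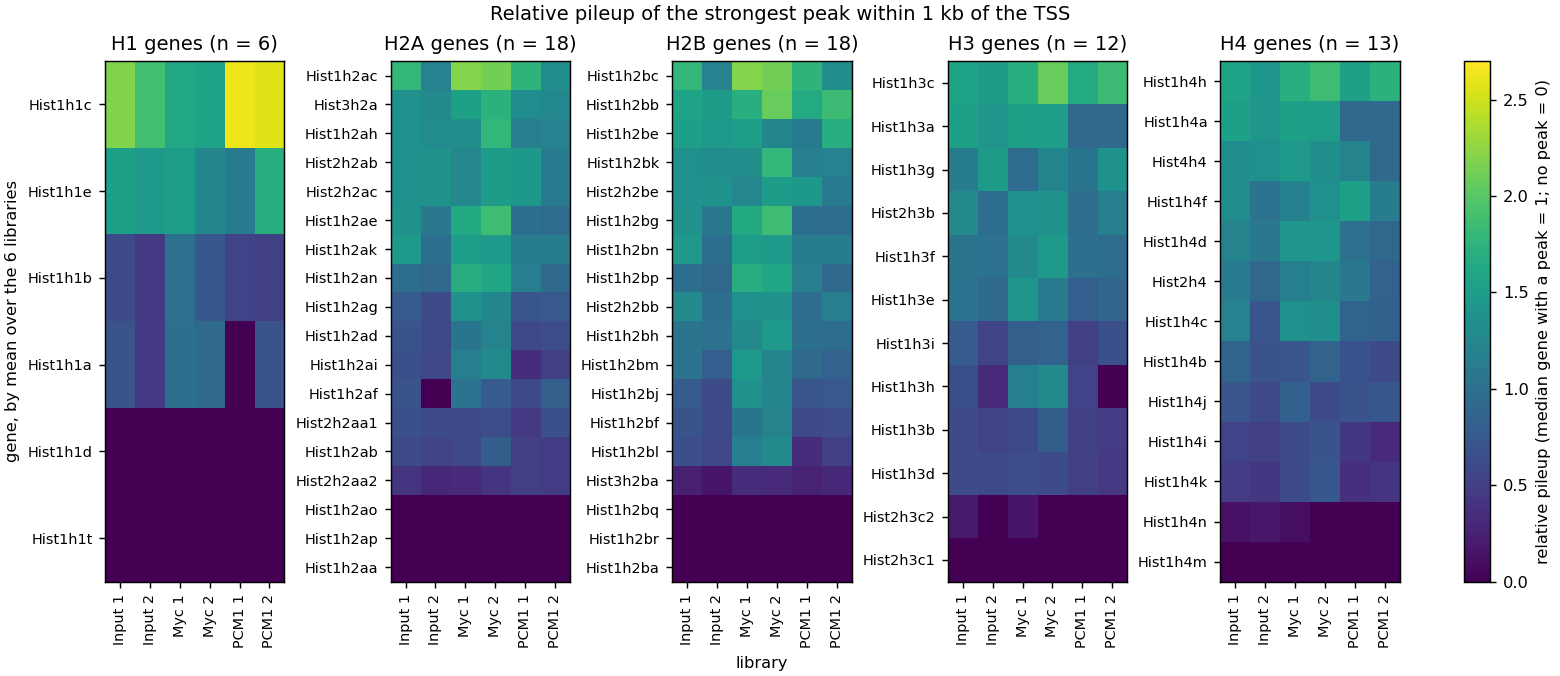
Relative pileup (colour, 1 is the median gene with a peak, 0 is no peak) of each of the 67 histone genes (rows, ordered within type by the mean over libraries) in the 6 libraries (columns), in 1 panel per histone type. Hist1h1c reaches 2.63 in PCM1 1, and the rows at 0 in every library are the 10 genes without a peak.

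The genes outside Hist1 follow, in the same order of groups. Hist2h2ab, Hist2h2ac and Hist2h2be took their level from 1 peak, at 1.37 and 1.39 for Input, 1.25 and 1.49 for Myc and 1.44 and 1.10 for PCM1, with all groups overlapping. Hist2h3b and Hist2h2bb likewise shared a peak, at 1.27 and 0.973, 1.36 and 1.38, and 0.968 and 1.15, with Myc highest. Hist2h4 had 1.11 and 0.905, 1.17 and 1.24, and 1.08 and 0.852, again with Myc highest. Its values come from different sites, since the strongest summit lay 949, 947 and 926 bases after the start for Input 1, Input 2 and PCM1 2, but 91 bases before it in both Myc libraries and 5 before it in PCM1 1.

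Hist2h2aa1 had 0.655 and 0.622 for Input, 0.611 and 0.640 for Myc, and 0.452 and 0.656 for PCM1, which overlapped. Hist3h2a had 1.35 and 1.27, 1.53 and 1.73, and 1.31 and 1.26, with Myc above the rest. Hist4h4, an H4 gene that stands alone, had 1.31 and 1.36 for Input, 1.45 and 1.34 for Myc and 1.21 and 0.934 for PCM1, where PCM1 was lowest and Input and Myc overlapped.

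Head-to-head genes shared their accessible region. There were 13 divergent pairs with starts 176 to 660 bases apart (median 268), 12 of an H2A and an H2B gene and 1 of Hist1h2bh and Hist1h3f. In the 10 pairs with a peak in all 6 libraries, both genes had the same strongest peak in every library. In 8 of the 10 the summit lay between the starts in all 6 libraries. The 3 pairs with no peak were the 2 near-identical copies and the testis pair. All 12 H2A and H2B pairs held CCAAT between the starts, 2 to 5 times each, and 5 held the octamer, with or without a peak.

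Over all histone genes the nearest summit lay a median 70.0 to 87.0 bases before the start, depending on the library, and the mean of the 6 medians was -79.7 from the start. It was upstream at 45 to 50 genes per library and within 250 bases at 42 to 51, fewest in the PCM1 libraries.

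In relative pileup the Myc libraries stood above the others at most of the 52 histone genes with a peak in all 6 libraries. This held on some scales and not by fold enrichment, as given below. Both Myc libraries exceeded the other 4 in relative pileup at 30 of the 52 histone genes with a peak in all 6 libraries (57.7%), against 14.8% of all 12311 such genes. They were below the other 4 at 1 histone gene, Hist1h1c, against 28.2% of genes. With 2 libraries against 4 the smallest one-sided exact permutation p is 0.0667, so no single gene could pass 0.05 and none was tested.

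Both PCM1 libraries were below the other 4 at 19 histone genes (36.5%), against 17.9% of genes. Without Input 2 it was 35, a comparison with the other 3 libraries for which no share of all genes was computed. The count moved with the scale as well. It was 7 (13.5%) against 14.3% of genes by fold enrichment, 21 (40.4%) against 34.3% by rank percentile, 22 (42.3%) against 33.3% over the genome-wide background, and 16 of 49 (32.7%) against 19.3% within 200 bases of the start. By fold the share at histone genes was thus that of all genes. The PCM1 libraries were above the other 4 at 2 histone genes, Hist2h2aa2 and Hist1h1c, against 18.3%. Both Input libraries were above the rest at none, against 15.1%, and below them at 3, Hist3h2ba, Hist1h3c and Hist1h2bb, against 4.58%. Counted by region, Myc was above the other 4 in relative pileup in 22 of 38 regions (57.9%), and by fold in 9 (23.7%). No share by region was computed over all genes.

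By type, Myc was above the other 4 at 1 of 3 H1, 8 of 14 H2A, 11 of 15 H2B, 5 of 9 H3 and 5 of 11 H4 genes. By position it was so at 10 of 11 genes of the first Hist1 stretch, 3 of 5 of the second, 12 of 25 of the third, 3 of 8 Hist2 genes, both Hist3 genes and not Hist4h4.

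Among the 52 genes with a peak in all 6 libraries, the largest ratios were at Hist1h2bl and Hist1h2ai, whose shared promoter opens the sequences above. They had 0.655 and 0.581 for Input, 1.17 and 1.28 for Myc and 0.339 and 0.508 for PCM1, with no overlap between any 2 groups. Myc was thus 2.89 times PCM1 and 1.98 times Input, from pileups of 147 and 160 reads in Myc and 21 and 31 for PCM1. With no peak counted as 0, larger ratios came from Hist1h3h, at 4.46 for Myc to PCM1 and 2.50 for Myc to Input, and from Hist1h2af, at 2.64 for Myc to Input. Next among the 52 came Hist1h2ag and its partner Hist1h2bj, with 0.775 and 0.622 for Input, 1.38 and 1.24 for Myc and 0.726 and 0.754 for PCM1, a Myc to Input ratio of 1.88. Hist1h2ae and Hist1h2bg, also shown above, had 1.39 and 1.08, 1.64 and 1.86, and 0.984 and 0.951.

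Over the 52 genes the median ratio of Myc to PCM1 was 1.36, above 1 at 46 genes, against a median of 0.95 over all genes with a peak in all 6 libraries. Myc to Input had a median of 1.23 against 0.93, and PCM1 to Input 0.94 against 0.97. All 3 ratios share libraries and are not separate evidence. Within a group the 2 libraries differed by a median 1.12 to 1.13 times over the same 52 genes. The median ratio of Myc to PCM1 was 1.36 for H2A, 1.40 for H2B, 1.40 for H3, 1.30 for H4 and 0.98 for the 3 H1 genes.

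**Figure D4:**
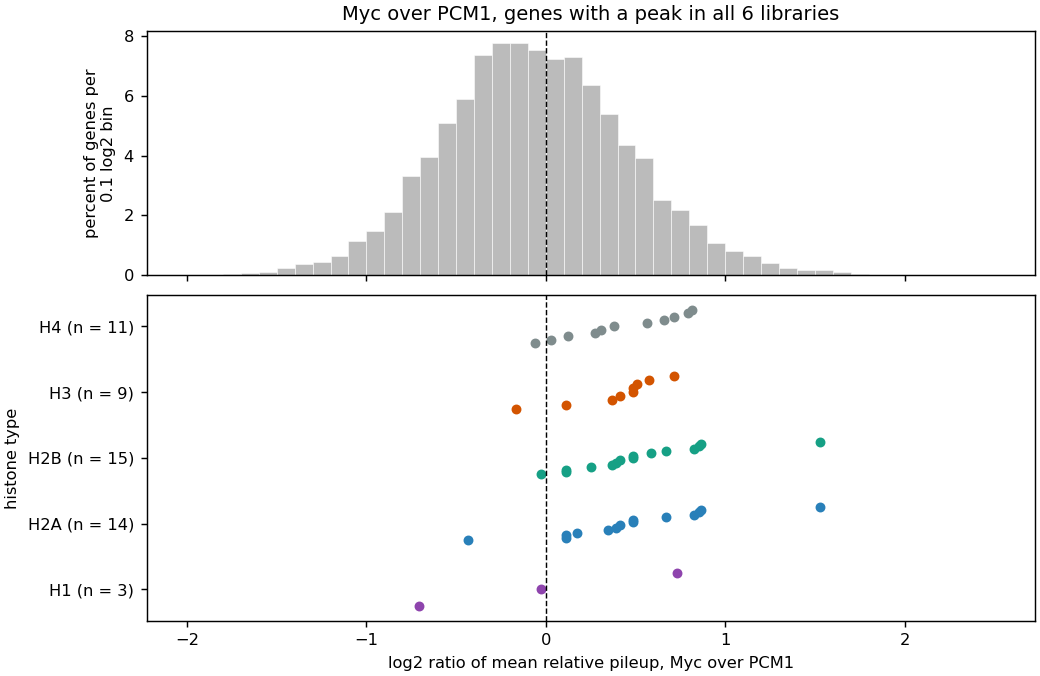
The upper panel is the distribution of the log2 ratio of mean relative pileup, Myc over PCM1, over all 12311 genes with a peak in all 6 libraries (percent of genes per bin), and the lower panel gives 1 point per histone gene by type. The dashed line is a ratio of 1; 46 of 52 histone genes lie to its right, and genes of a divergent pair can share a point.

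The size of this difference depended on the scale. On the pileup over the genome-wide background, Myc was above the other 4 at 47 of 52 histone genes and 46.6% of genes. By rank percentile it was so at 33 and 31.6%, and within 200 bases of the start at 32 of 49 and 14.9%. By fold enrichment, which divides by the local background, Myc was above the other 4 at 13 of 52 histone genes (25.0%) against 14.3% of genes, and the median ratio of Myc to PCM1 was 1.07 against 0.97.

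The local background itself differed. It is the read level MACS2 takes from the surrounding 10 kb of a peak, here divided by the genome-wide background. Histone genes are packed, so this level can include reads of the peak itself and of neighbouring histone peaks. It is therefore not independent of the pileup, and the part of those reads was not computed. Its median over histone genes was 6.61 and 5.82 for Input, 9.49 and 9.81 for Myc and 6.49 and 6.66 for PCM1, with mean 7.48. Over all genes with a peak it was 4.17 and 4.38, 5.25 and 5.24, and 4.38 and 4.61. Histone starts thus lay in stretches of higher read level in every library, most so in Myc. Both Myc libraries exceeded the other 4 at 51 of 52 histone genes (98.1%) against 48.6% of genes. The median Myc to PCM1 ratio of local background was 1.52 over histone genes and 1.16 over all. Over the 6 non-histone neighbours with a peak in all 6 libraries it was 1.43, and above 1 at all 6. Their median ratio in relative pileup was 1.17, above 1 at 5 of 6, so a higher level in Myc was not particular to histone genes.

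Fold enrichment at histone genes was correspondingly below that of all genes, with medians of 10.2 and 14.4 for Input 1, 11.0 and 14.2 for Myc 1, and 8.24 and 11.6 for PCM1 1. The peaks at histone starts were also shorter than at all genes in PCM1, with medians of 535 and 705 bases in PCM1 1, and close to them in Myc 1, at 761 and 773.

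Cell type markers also differed between the groups, but not in the same way on every scale. Both Myc libraries were above the other 4 at 2 of the 5 fibroblast markers and 3 of the 5 endothelial markers with a peak in all 6 libraries, and at none of the 10 cardiomyocyte markers. They were below the other 4 at 1 endothelial and 9 cardiomyocyte markers. Over all genes with a peak in all 6 libraries the shares were 14.8% above and 28.2% below. On the rank scale the Myc libraries were above at 1 fibroblast and 3 endothelial markers and below at 5 cardiomyocyte markers. The shares of all genes on that scale were 31.6% above and 4.18% below. By fold enrichment they were above at 0 fibroblast, 2 endothelial and 1 cardiomyocyte markers, against 14.3% of genes. They were below by fold at 1 endothelial and 4 cardiomyocyte markers. The share of all genes below by fold is not given here, so these counts are not read further. Summed levels are given above. The part of cell composition in the result on histone genes was not tested, and more nuclei of a type and more accessibility per nucleus cannot be told apart in these libraries.

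Other genes of histone supply gave median ratios of Myc to PCM1 near 1 in relative pileup. Over all genes with a peak in all 6 libraries that median was 0.95, and Myc was above the other 4 at 14.8%. Among 11 histone variant genes outside the set studied here, 10 had a peak in all 6 libraries and H3f3b had none within 1 kb of its gene-level start. Their median Myc to PCM1 ratio was 0.98, and Myc was above the other 4 at 1 of 10. Of 3 germline variants, H1foo had a peak in 2 libraries and Hils1 and H1fnt in none. Of 17 genes of histone gene transcription and mRNA processing, such as Npat and Slbp, 15 had a peak in all 6 libraries, Coil and Zfp473 had none, the median ratio was 1.02 and Myc was above at 4 of 15. All 8 chaperone and assembly genes, such as Nasp and Asf1b, had a peak in all 6 libraries, with a median ratio of 0.94 and Myc above at 2. In local background the median Myc to PCM1 ratio was 1.21 for the variants, 1.33 for transcription and processing and 1.21 for chaperones and assembly.

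At some genes the strongest summit was not at the start. This comparison was chosen after the values were seen. Both PCM1 summits lay 250 bases or more downstream of both Myc summits at 5 of 52 histone genes, Hist4h4, Hist3h2a, Hist1h4h, Hist1h1e and Hist1h2be, against 1.79% of genes, and upstream at none, against 1.28%. The window of Hist1h2be, whose annotated start lies 35168 bases before its start codon, covers the peak of Hist1h1e, so these are 4 places.

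At Hist4h4 the strongest summit lay 24 and 21 bases before the start for Input and 25 and 24 before it for Myc, but 563 and 564 bases after it for PCM1. At Hist3h2a it lay 126 and 125 bases before the start in Input, further before it in both Myc libraries, and 300 and 434 after it in PCM1. At Hist1h1e it lay within 4 bases of the start in Input and Myc and 892 and 855 bases after it in PCM1. Hist1h4h had it 29 bases before the start in Input 1 but 711 after it in Input 2, 28 and 27 before it in Myc, and 719 and 715 after it in PCM1, so Input overlapped both.

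**Figure D5:**
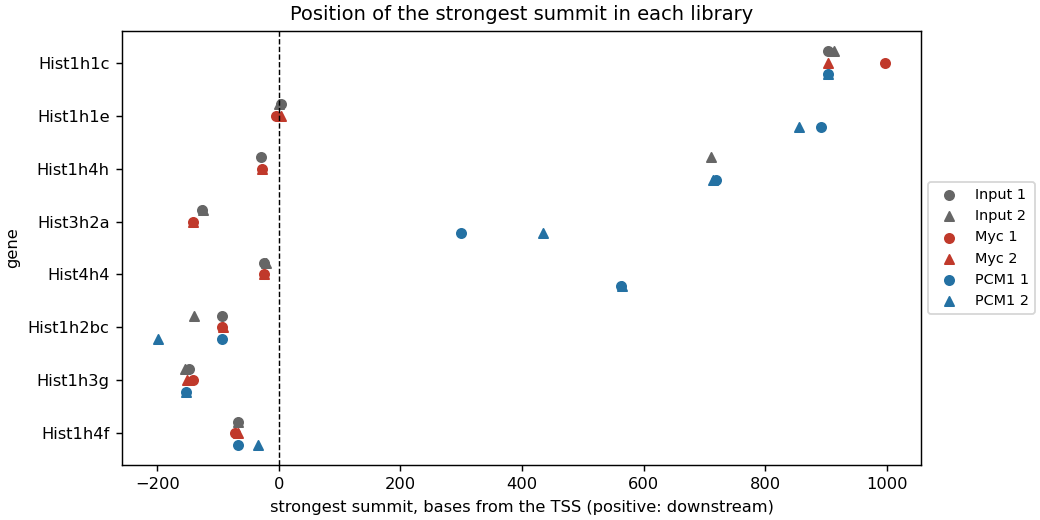
Position of the strongest summit in bases from the start (horizontal axis, positive is downstream, dashed line at the start) for 8 histone genes (rows), with circles for replicate 1 and triangles for replicate 2 of each group. The PCM1 symbols of Hist1h1e, Hist1h4h, Hist3h2a and Hist4h4 lie 300 bases or more after the start, and those of Hist1h2bc, Hist1h3g and Hist1h4f lie before it in every library.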

How the data were processed

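Omni-ATAC-Seq libraries of 3 groups of 2 were analysed from the peak lists of the authors, 1 per library. Per the labels and the study's methods, the authors mapped reads to mm10 with Bowtie2 2.3.3.1, marked duplicates with Picard 2.2.1, removed blacklisted regions with bedtools, shifted alignments for the transposase and called peaks per library with MACS2 2.1.0.20160309 at a q-value of 0.05. How reads with several placements were filtered is not given in the sources used here.

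The deposited columns hold a score (10 times -log10 q, capped), fold enrichment (a ratio of pileup to local background, each plus 1), -log10 p, -log10 q and the summit offset. The study's text gives a range of mapped reads over the libraries but no value for each. The deposited lists give no read totals, so the depth of a given library is known here only through the background. Whole-number pileups were solved from fold and -log10 p, and 100.0% of peaks in each library gave one within 0.02 in -log10 p. The solver recovered 100.0% of 20000 simulated pileups.

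Genes with the largest differences, the highest and lowest of each type, genes without a peak in some library and the Hist2, Hist3, Hist4 and testis genes were named, with the 3 highest neighbours. The lowest gene of each type with a peak in every library, and Hist1h2ae with Hist1h2bg, were added after their values were seen. No test was made across genes. Members and lists were chosen with earlier results of these data known. Alternatives were other thresholds, windows, scales and left-out libraries. Python 3.11.15, numpy 2.4.6, scipy 1.17.1 and pandas 2.3.3 were used, with RefSeq GRCm38.p6 for sequences.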

Additional observations from a re-analysis of the deposited data

How the results depend on the processing

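Of 103 recalculations of 12 results, 86 stayed within 1.5 times (counts) or within the spread between replicates (medians). Every count of genes with a peak did so under a q of 0.01, equal numbers of peaks, the 200 base window and summits within 1 kb. The count of genes with a peak in all 6 libraries did so with the start codon too. These counts also stayed within 1.5 times without each library that entered them. Leaving out a library can only raise such a count, and for histone genes the upper bound exceeds all 67 genes. Those recalculations, included in the 86, could therefore not have moved and show nothing about stability. The mean of the median rank percentile, 84.3, was 65.6 when ranked by fold, 87.7 by pileup and 80.0 within 200 bases, and 82.7 to 86.1 without each library. By fold the medians of all genes were 51.6 to 72.1 and those of histone genes 54.6 to 72.5. The mean of the median relative pileup, 1.09, was 0.991 within 200 bases and 1.03 with each peak counted once, and 1.04 to 1.12 without each library. The local background ratio, 7.48, was 7.01 to 7.81 without each library. The median summit was at -96.2 bases from the start codon, against -79.7 from the start. This distance was the only result that could have changed sign, and it stayed negative. Chosen after seeing the data were the scales of the Myc and PCM1 counts. The count of 30 histone genes with Myc above the other 4 was 47 over the genome-wide background and 13 by fold, and 30 to 40 without each library. The count of 19 with PCM1 below was 7 by fold and 19 to 35 without each library, highest without Input 2. Shares of all genes were not computed with a library left out. The median Myc to PCM1 ratio of 1.36 was 1.82 over the genome-wide background and 1.07 by fold, and 1.31 to 1.43 without each library. The cause was not tested. No paired analysis was possible because no result comes from a test. Whether same-numbered libraries share a preparation is not given by the labels. With 2 libraries a group, only differences larger than the spread of 2 values can be described.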
